A study of Mus musculus with 4 samples.

Results

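The genes studied here encode the main known binding partners of benztropine, the muscarinic acetylcholine receptors M1 to M5 (*Chrm1* to *Chrm5*), the histamine H1 receptor (*Hrh1*) and the dopamine transporter (*Slc6a3*). They were chosen by symbol in the probe annotation. All 7 genes had a probe set annotated to that symbol alone, and *Chrm1* had 2, which gave 8 probe sets of 25341 with a gene symbol. A further probe set carried *Chrm2* together with *9330158H04Rik* and gave no value for *Chrm2* alone.

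The cells came from the brains of C3H/He mouse pups aged 3 days and were grown as primary cultures, enriched in astrocytes by shaking off the oligodendroglial cells, and labelled as primary astrocytes. One array each was made of untreated control cells, of cells exposed to IFNγ at 250 IU/mL, of cells exposed to benztropine at 2.0 μM, and of cells exposed to both agents, each exposure lasting 48 h. RNA of 3 independent cultures was mixed on each Affymetrix Mouse Gene 2.0 ST array, so there was 1 array per condition and no spread between replicates. The values are log2 signals, and the array medians lay between 6.65 and 6.68. Of the astrocyte markers, 10 of 10 on the control array and 9 or 10 on the others were above background. That level was set by receptor genes of the nose, as given with the first results. On the control array, 10 of 10 microglia and macrophage genes, 10 of 14 oligodendrocyte lineage genes and 5 of 11 neuronal genes were above it as well. Of all probe sets with a gene symbol, 57.2% were above it on that array. As a check of the exposure, 10 of 10 IFNγ response genes were higher past 1.5-fold with IFNγ (1.55% of probe sets with a gene symbol). Their median log2 difference was 1.97. With both agents against benztropine alone, 10 of 10 were again higher (1.4%), with a median of 2.08. With benztropine against control, 2 of them were also higher past 1.5-fold (0.284%). These were *Iigp1*, by 0.87, and *Gbp4*, by 0.82 between signals below background. With both agents against IFNγ, 0 were (0.249%). In such mixed cultures, fewer cells of a type and less RNA per cell cannot be told apart.

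Muscarinic receptors are G protein-coupled receptors for acetylcholine. M1, M3 and M5 act mainly through Gq, phospholipase C and calcium release, and M2 and M4 mainly through Gi, which lowers cyclic AMP. The H1 receptor also signals through Gq, and the dopamine transporter returns dopamine from the extracellular space into dopaminergic neurons. Benztropine blocks all these proteins. It is used against Parkinson's disease and has been studied as a remyelinating agent through muscarinic receptors of oligodendrocyte precursors.

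Between 2 and 4 of the 7 target genes were above background on an array. On each array, background was the signal below which 95 in 100 of 1405 probe sets for receptors known from the nose fell, those of olfactory (Olfr) and vomeronasal (Vmn1r, Vmn2r) genes, a level between 6.64 and 6.69, and a gene above it is called detected. On the control array, 2 of the 8 target probe sets exceeded it, those of *Chrm1* and *Slc6a3*, whereas 57.2% of all named probe sets did. With IFNγ 3 of 8 were above background against 58.5%, with benztropine 4 of 8 against 58.3%, and with both agents 3 of 8 against 58%. At the 99th percentile of the same receptors, which lay between 7.42 and 7.62, 0 of 8 target probe sets passed on the control array and 0 of 8 with both agents, 1 passed with IFNγ and 1 with benztropine. The share of named probe sets above that level was 37.9%, 40%, 42.2% and 38.4% on the control, IFNγ, benztropine and combined arrays.

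**Figure D1:**
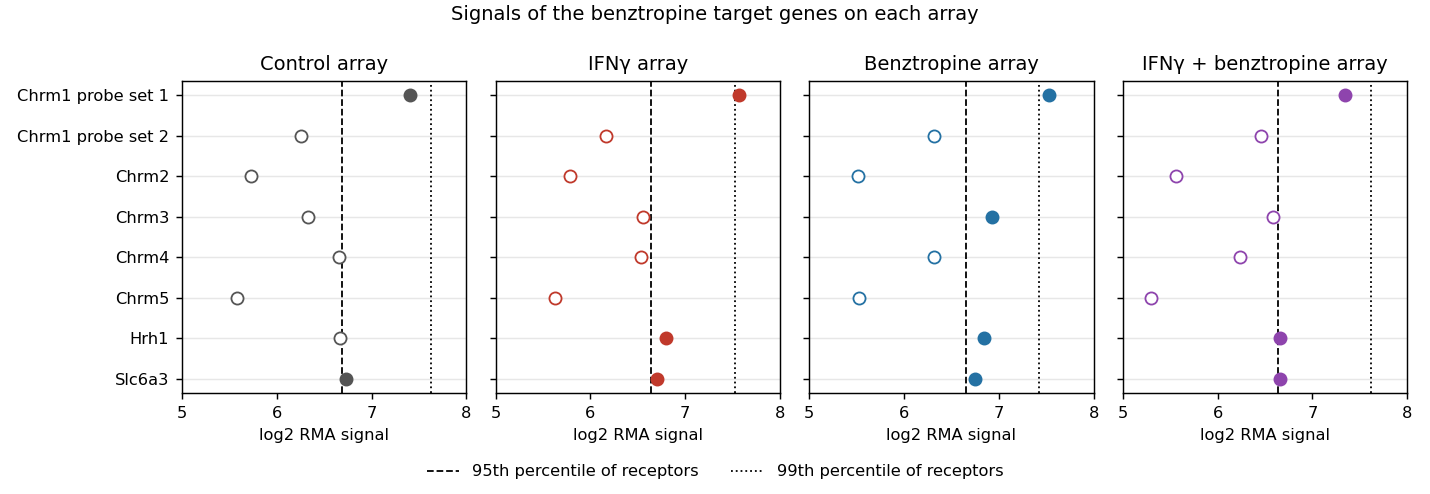
Log2 signal of the 8 target probe sets (rows) on the control, IFNγ, benztropine and combined arrays (panels), 1 array each. Filled points exceed background, the 95th percentile of receptors (dashed line), open points do not, and the dotted line is the 99th percentile. *Chrm1* probe set 1 is above the dashed line in all 4 panels, and *Chrm3* only with benztropine.

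*Chrm1*, the M1 receptor gene, was the one target to pass the 99th percentile on any array, and did so in 1 of its 2 probe sets. Probe set 1 had a log2 signal of 7.40 in control, 7.57 after IFNγ, 7.52 after benztropine and 7.35 after both. It exceeded background on all 4 arrays, by 0.71 to 0.93, and exceeded the 99th percentile with IFNγ and with benztropine. Among the 1405 receptor probe sets, 18 were at or above it on the control array, 21 on the combined array and 13 on each of the others. Its place among all named probe sets ran from the 56.9th to the 60.7th percentile, near the middle of the array. Probe set 2 had 6.25 in control, 6.17 after IFNγ, 6.32 after benztropine and 6.46 after both, below background on every array. Only probe set 1 thus placed *Chrm1* above background, and the part of the gene that each one covers is not given in the sources used here. The mean of both lay above background on all 4 arrays, at 6.83 to 6.92.

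*Slc6a3*, the dopamine transporter gene, was just above background on each array. Its log2 signal on the control, IFNγ, benztropine and combined arrays was 6.73, 6.70, 6.75 and 6.66, which exceeded background by 0.05, 0.07, 0.10 and 0.02. Between 65 and 70 of the receptor probe sets were at or above it. With both agents it was not above background when olfactory receptors alone set the level. Its range of 0.09 over the arrays was smaller than that of most named probe sets, whose median range was 0.21.

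Markers of dopaminergic neurons, the cells in which this transporter is known to act, were detected in part. Of 8 such genes, 3 were above background with IFNγ and 4 on each of the other arrays. Beside them, 57.2% to 58.5% of all named probe sets were above it. The summed linear signal of the list ran from 975 to 1075. Those above background in control were the transcription factor genes *Lmx1b*, *Foxa2*, *Nr4a2* and *En1*. The genes that define the transmitter were below background on all 4 arrays. *Th*, which encodes the rate-limiting enzyme of dopamine synthesis, had 6.61, 6.59, 6.36 and 6.48 in the same order of arrays, and *Slc18a2*, which encodes the vesicular monoamine transporter, had 5.88, 5.90, 5.91 and 5.96.

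*Hrh1*, the H1 receptor gene, straddled background. It had 6.67 in control, where background was 6.69, and it was above background by 0.16 with IFNγ (6.80), by 0.20 with benztropine (6.85) and by 0.02 with both agents (6.66). It was highest on the arrays of each agent alone and lowest with both, within a range of 0.19. With both agents it was not above the level set by olfactory receptors alone.

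*Chrm3*, the M3 receptor gene, was above background on 1 array. Its log2 signal was 6.33 in control, 6.55 with IFNγ and 6.58 with both agents, all below background, and 6.93 with benztropine alone, 0.28 above it. Among receptor probe sets, 114 were at or above it in control and 44 with benztropine. Its range of 0.60 was the largest of the 8 and larger than that of 96.4% of named probe sets.

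Sequence at the start of these genes was taken from RefSeq (GRCm38.p6), as windows of 250 bases before to 50 bases after a start. Of the 7 genes, 6 had at least 1 window, and *Chrm1* was not matched. The window of *Chrm3* is shown because this target had the largest measured difference with benztropine (at least 1.18-fold, since its control signal was below background), and the window of *Hrh1* because it holds the one match to an interferon-stimulated response element core found for a target above background. The *Chrm3* window is chr13:10360754-10361053 on the minus strand, and that of *Hrh1*, the third of 4 starts, is chr6:114403416-114403715 on the plus strand. Capitals mark motif matches: an E-box in *Chrm3*, and in *Hrh1* a pair of E-boxes and, beginning at base 4 after the start, the core of an interferon-stimulated response element.
Chrm3: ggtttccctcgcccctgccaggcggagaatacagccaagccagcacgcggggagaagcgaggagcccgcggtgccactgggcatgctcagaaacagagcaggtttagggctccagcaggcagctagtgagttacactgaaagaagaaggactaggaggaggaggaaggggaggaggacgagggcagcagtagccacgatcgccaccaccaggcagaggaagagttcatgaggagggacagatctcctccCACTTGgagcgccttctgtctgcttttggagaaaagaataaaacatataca
Hrh1: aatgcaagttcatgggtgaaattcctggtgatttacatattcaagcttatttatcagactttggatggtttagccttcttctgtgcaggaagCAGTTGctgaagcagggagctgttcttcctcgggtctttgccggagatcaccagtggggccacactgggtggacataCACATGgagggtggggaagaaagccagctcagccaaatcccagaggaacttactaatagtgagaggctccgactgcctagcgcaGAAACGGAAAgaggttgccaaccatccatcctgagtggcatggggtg
Motifs were searched on both strands. The interferon-stimulated response element core, GAAA repeated after a gap of 2 bases, matched in 2 of 9 target windows, those of *Hrh1* above and of *Chrm5*, in 3.44% of all 32851 windows and in 3 of 9 windows of the IFNγ response genes. The AP-1 motif TGANTCA matched in 1 target window, another start of *Hrh1*, and in 7.81% of all windows, the cyclic AMP response element TGACGTCA in 0 and in 1.79%, and the E-box CANNTG in 6 of 9 and in 72.3%. An E-box is therefore common to most windows, and a match describes the letters only.

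*Chrm4*, *Chrm2* and *Chrm5* were below background on all 4 arrays. *Chrm4*, the M4 receptor gene, had 6.65 in control and 6.54 with IFNγ, and 6.31 with benztropine and 6.24 with both agents. The highest signals of *Chrm4* were those of the arrays without benztropine. *Chrm2*, the M2 receptor gene, had 5.73, 5.79, 5.51 and 5.57 on the control, IFNγ, benztropine and combined arrays, and *Chrm5*, the M5 receptor gene, had 5.58, 5.62, 5.53 and 5.30. On each array at least 230 receptor probe sets were at or above *Chrm2* and at least 278 at or above *Chrm5*, while 73 to 118 were at or above *Chrm4*. The probe set shared by *Chrm2* and *9330158H04Rik* had 5.35 to 5.55. Because probe sets differ in how strongly they bind, these values place each gene against background and do not rank the receptors, and a signal below background does not show that a transcript is absent.

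**Figure D2:**
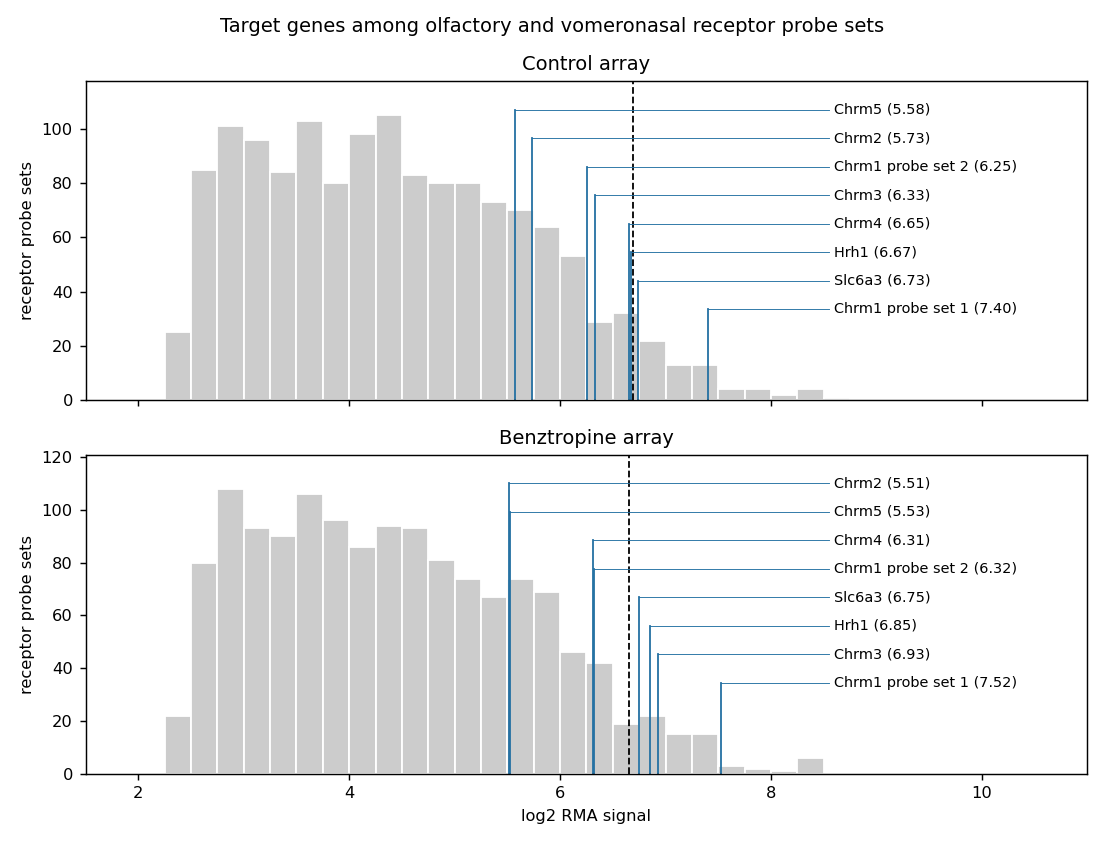
Number of receptor probe sets (grey bars, y axis) by log2 signal (x axis, bins of 0.25) on the control array (top) and the benztropine array (bottom), with each target probe set marked by a blue line and its signal in brackets. The dashed line is the 95th percentile; *Chrm3* moves from 6.33 to 6.93 across it and *Chrm2* and *Chrm5* stay inside the body of the distribution.

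The measured differences of these genes with IFNγ were below 1.5-fold, each between 1 array and 1 other. Against control, 0 of the 8 probe sets passed 1.5-fold, the fold threshold of the study and a log2 difference of 0.58, in a comparison where 1.83% of named probe sets did. The differences ran from −0.12 for *Chrm4* to 0.22 for *Chrm3*, with a median of 0.05 beside −0.00 over all named probe sets. *Chrm1* probe set 2, *Chrm2*, *Chrm4* and *Chrm5* were below background on all 4 arrays, and *Chrm3* on both arrays of this pair. There a difference does not measure a fold. *Hrh1* was below background in control. With both agents against benztropine alone, which shares no array with the first comparison, 0 of 8 passed against 1.75%, and the differences ran from −0.35 for *Chrm3* to 0.14 for *Chrm1* probe set 2, with a median of −0.13 beside −0.03. *Chrm1* probe set 1 was 0.16 higher in the first pair and 0.18 lower in the second, and *Hrh1* was 0.13 higher and 0.19 lower. In both pairs the differences of these probe sets were smaller than the standard deviation over all named probe sets, 0.26 in each pair. The *Chrm3* difference of −0.35 was larger than it, and since the signal on the combined array was below background, it was lower by at least 1.23-fold. In that pair 0.347% of named probe sets were lower past 1.5-fold and 1.4% were higher.

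With benztropine against control, the measured difference of 1 target was past 1.5-fold, and it was taken against a signal below background. For *Chrm3* the log2 difference was 0.60, where 0.284% of all named probe sets were higher past 1.5-fold, and 0.192% of those with a mean signal within 0.5 of background. Since the control signal was below background, the fold that can be stated is at least 1.18, so a change past 1.5-fold was not shown. When benztropine was added to IFNγ, *Chrm3* differed by 0.03, from 6.55 to 6.58. No other target passed 1.5-fold in either pair (0.466% of named probe sets passed it in the pair without IFNγ and 0.525% in the pair with it). The median of the 8 was 0.04 against control, beside 0.01 over all named probe sets, and −0.18 with both agents against IFNγ, beside −0.02. At 1.2-fold, 2 of 8 passed against control (9.04% of named probe sets) and 3 of 8 with both agents against IFNγ (9.79%), and for IFNγ 0 of 8 passed against control (12.9%) and 1 of 8 against benztropine (13.4%).

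Of the fibroblast and leptomeningeal marker genes, *Dcn* and *Lum* had measured differences past 1.5-fold with benztropine against control, and the others did not. *Dcn*, a proteoglycan gene of fibroblasts and leptomeninges, had 7.29 in control, 6.39 after IFNγ, 8.41 after benztropine and 6.99 after both. *Lum*, named after its values were seen, had 4.72, 4.91, 5.61 and 5.22, all below background. Of the 8 genes of that list, 7, 6, 7 and 7 were above background on the 4 arrays, and their summed linear signal was 6678 in control, 5505 after IFNγ, 6578 after benztropine and 5499 after both. That sum is dominated by *Fn1*, the fibronectin gene, among the 3 highest of the list by mean signal. Its log2 signal was 12.13 on the control array and 12.04 on the benztropine array. Of the 9 probe sets of the list, 2 had a difference past 1.5-fold with benztropine against control (0.284% of named probe sets were higher). *Dcn* was higher by 1.11 on the log2 scale. *Lum* differed by 0.89 between signals below background, where a difference does not measure a fold. The other probe sets of the list differed by −0.17 to 0.07, and the median difference of the list was 0.02. With both agents against IFNγ, *Dcn* was higher by 0.60, from a signal below background, whereas *Chrm3* differed by 0.03. For pericytes and smooth muscle, 6 of 8 genes were above background on every array, with a summed signal of 8665 in control and 8284 with benztropine. The part of these cells in the *Chrm3* signal was not tested.

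For *Chrm4*, *Chrm2* and *Chrm5* the measured differences with benztropine were below 0 in both pairs, and none passed 1.5-fold. *Chrm4* differed from control by −0.34, and by −0.30 with both agents against IFNγ. *Chrm2* differed by −0.22 in each pair. Over all named probe sets, 54% had the same sign in both pairs. *Chrm5* differed by −0.05 and −0.32, and *Chrm1* probe set 2 was higher by 0.06 and 0.29. All signals of these probe sets were below background, where a difference does not measure a fold. Of the other targets, *Hrh1* differed by 0.18 and −0.14, the first against a control signal below background, *Chrm1* probe set 1 by 0.12 and −0.22, and *Slc6a3* by 0.01 and −0.04, so that *Hrh1* and *Chrm1* probe set 1 had differences of opposite sign without and with IFNγ. The standard deviation over all named probe sets was 0.16 in each of these pairs.

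**Figure D3:**
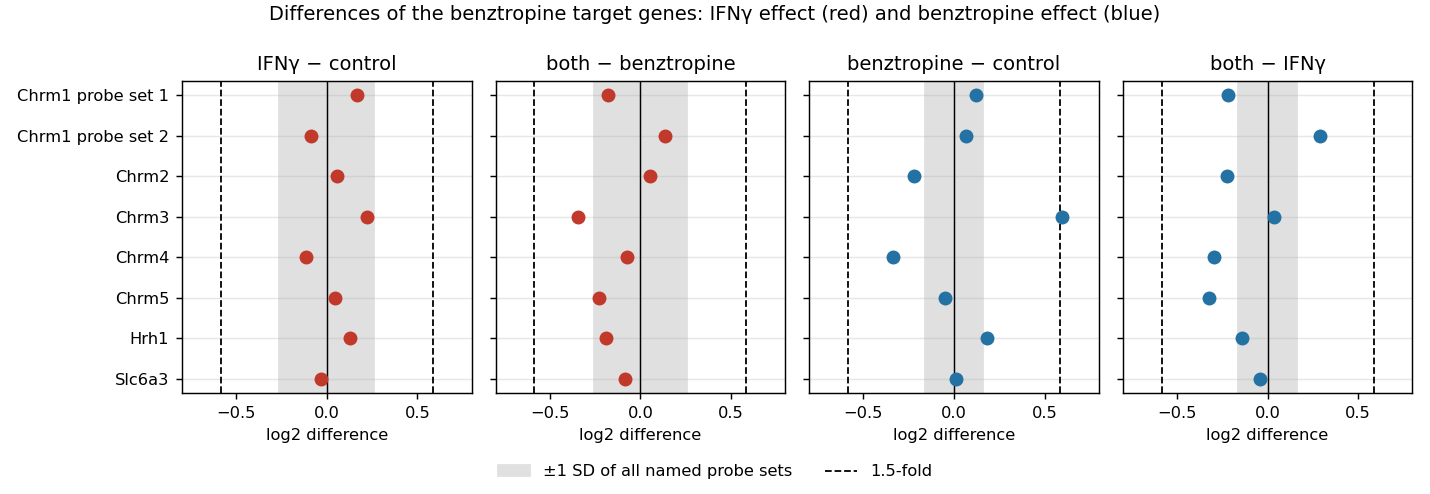
Log2 difference (x axis) of each target probe set (rows) in the 4 comparisons, 1 array against 1: the IFNγ effect in red and the benztropine effect in blue. The grey band is 1 standard deviation of all named probe sets to each side of 0 and the dashed lines are 1.5-fold; *Chrm3* at 0.60 with benztropine, against a control signal below background, is the single point beyond them.

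A fit across all 25341 named probe sets with additive terms for the agents (limma, moderated test, two-sided, with 1 residual degree of freedom) used all 4 arrays. It takes its error from the departure of the arrays from additive effects, moderated by a variance prior pooled over all named probe sets, and not from replicates. The prior had 3.79 degrees of freedom and so more weight than the residual. For IFNγ it called 0 of the 8 target probe sets at an adjusted p under 0.05, while it called 0.983% of named probe sets higher and 0.0434% lower. The IFNγ estimates ran from −0.10 for *Chrm4* (SE 0.07, limma adjusted p = 0.638) to 0.06 for *Chrm2* (SE 0.07, adjusted p = 0.802), and 0 of the 8 had an unadjusted p under 0.05. For benztropine limma called 0 of 8 and 0% of named probe sets in either direction. At an unadjusted p under 0.05 there were 2 of 8 targets, *Chrm4* and *Chrm2*, and 7.33% of named probe sets. Both genes were below background on all 4 arrays, where a difference does not measure a fold. Their residual standard deviations were 0.02 for *Chrm4* and 3.5e-05 for *Chrm2*, so their SEs rested mostly on the prior. The estimate for *Chrm4* was −0.32 (SE 0.07, unadjusted p = 0.00718, limma adjusted p = 0.676), and for *Chrm2* it was −0.22 (SE 0.07, unadjusted p = 0.0269, limma adjusted p = 0.676). *Chrm3* had an estimate of 0.32 (SE 0.15, limma adjusted p = 0.707), since the fit averages the pair where it was higher and the pair where it was not. The smallest adjusted p of the targets therefore lay far from the threshold, which does not show that they were unaffected.

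**Figure D4:**
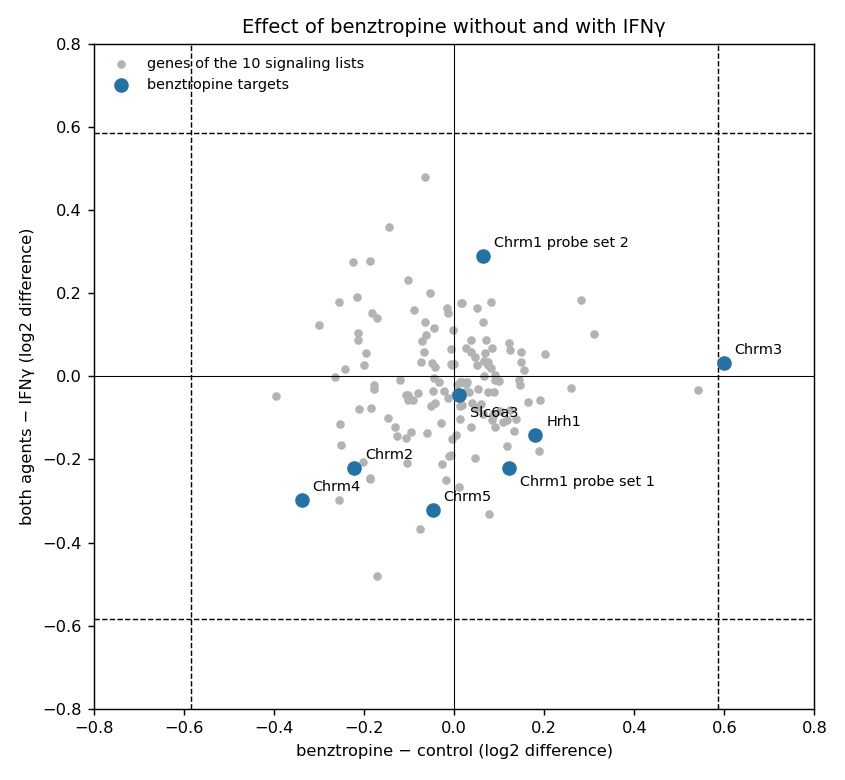
Log2 difference of benztropine against control (x axis) and of both agents against IFNγ (y axis), pairs that share no array, for the 8 target probe sets (blue, named) and 142 probe sets of 10 related signaling lists (grey). *Chrm4*, *Chrm2* and *Chrm5* lie in the lower left quadrant, with negative differences in both pairs, and *Chrm3* lies at 0.60 on the x axis and 0.03 on the y axis; dashed lines are 1.5-fold.

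The genes around the targets differed by role. Those that carry or limit the signal of G protein-coupled receptors were mostly detected, with 39 of 45 above background on every array (86.7%, beside 57.2% of named probe sets in control), while 11 of 39 other amine and nicotinic receptor genes were above it in control (28.2%). Genes were counted by their highest probe set, whereas the share of named probe sets counts each probe set. In each of the 4 comparisons, between 0.466% and 1.83% of named probe sets passed 1.5-fold. The list counts past 1.5-fold given below stand beside that share. These lists describe the culture and were not tested.

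All 12 measured genes of the Gq arm were above background on each array. *Gnaq*, which encodes the alpha subunit of Gq, had 10.30 in control, 10.38 after IFNγ, 10.26 after benztropine and 10.38 after both. *Gna11*, its close relative, had 9.76, 9.64, 9.77 and 9.62, and *Prkca*, which encodes protein kinase C alpha, had 9.81, 9.64, 9.75 and 9.51. In any comparison, 0 of 13 probe sets of the list passed 1.5-fold, where between 0.466% and 1.83% of named probe sets did. The largest difference was that of *Plcb2*, a phospholipase C gene. It was 0.47 higher with IFNγ against control and 0.45 higher with both agents against benztropine. The median difference of the list with benztropine was −0.01 against control and −0.02 against IFNγ.

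Of 17 genes of the Gi arm, 12 were above background on each array. *Gnai2* and *Gnai3*, which encode Gi alpha subunits, had 11.78 and 9.92 in control, and *Gnao1*, which encodes the alpha subunit of Go, had 10.93. None of the 18 probe sets passed 1.5-fold. Of 16 genes of receptor desensitization, which act by uncoupling receptors from G proteins or by shortening their signal, 15 were above background. Among them were *Rgs2* (9.92), *Rgs16* (9.36) and *Arrb2* (9.28), the last encoding a beta-arrestin, and 0 of 18 probe sets passed 1.5-fold. *Rgs1* came nearest, 0.56 higher with IFNγ against control and 0.41 higher with both agents against benztropine.

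**Figure D5:**
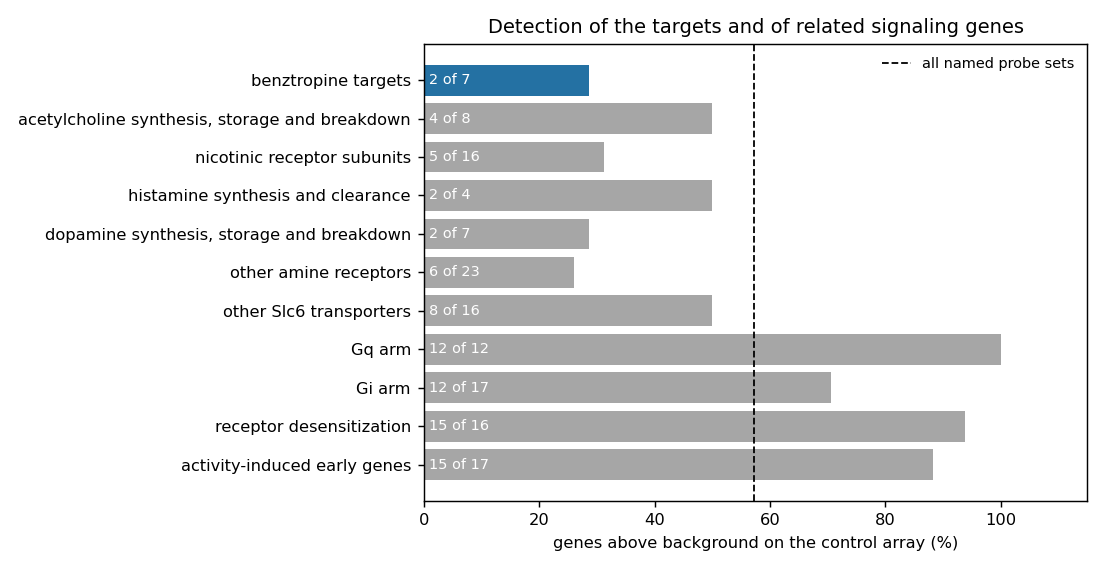
Share of genes above background on the control array (x axis, percent) for the 7 benztropine targets (blue) and 10 lists of related genes (grey), with counts inside the bars. The dashed line is the 57.2% of all named probe sets, counted by probe set, whereas the bars count genes by their highest probe set. The targets stand at 2 of 7, and the Gq arm at 12 of 12.

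Of genes that make, store or break down acetylcholine, 4 of 8 were above background on each array. *Slc44a1*, a choline transporter gene, had 10.05 in control, *Lynx1*, which encodes a modulator of nicotinic receptors, 8.98, and *Ache*, which encodes acetylcholinesterase, 7.26. *Chat*, which encodes the enzyme that makes acetylcholine, was below background on all 4 arrays, at 5.80 to 5.95. Of 5 cholinergic neuron markers, 0 were above background in control and with benztropine and 1, *Isl1*, with IFNγ and with both agents, and the summed linear signal of the list ran from 291 to 299. None of the acetylcholine genes and none of the 16 nicotinic subunit genes, 5 of which were above background in control, passed 1.5-fold. Among the subunit genes above background was *Chrna7*, which encodes the alpha7 subunit, with 7.47 in control and 7.37 with benztropine.

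For histamine, 2 of 4 genes of synthesis and clearance were above background, *Hnmt*, which encodes the methyltransferase that inactivates it (8.34 in control), and *Slc29a4*, a monoamine transporter gene (7.15). For dopamine, 2 of 7 were, the monoamine oxidase genes *Maoa* (9.79) and *Maob* (6.75 in control and 7.20 with IFNγ). None of these passed 1.5-fold.

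Among 23 other amine receptor genes, 6 were above background in control and 0 of 25 probe sets passed 1.5-fold. Among those above background were *Drd5* (7.39), *Hrh3* (7.27) and *Htr2a* (7.23), which encode a dopamine, a histamine and a serotonin receptor. *Drd5* also had a probe set below background (6.40), as *Chrm1* did. Of 16 other genes of the Slc6 transporter family, to which *Slc6a3* belongs, 8 were above background in control. *Slc6a6*, the taurine transporter gene, had 10.88 and *Slc6a8*, the creatine transporter gene, 10.83. *Slc6a15*, a neutral amino acid transporter gene, had 8.48 in control, 8.22 after IFNγ, 8.67 after benztropine and 8.04 after both, and fell by 0.64 on the log2 scale with both agents against benztropine alone. It was the single probe set of the 142 in these lists to pass 1.5-fold in any of the 4 comparisons. In that pair, 0.347% of named probe sets were lower past 1.5-fold, and 1.75% passed it in either direction. Genes induced early by receptor activity, such as *Jun* (9.95), *Dusp1* (9.76) and *Fos* (9.24), were above background in 15 of 17 cases, and 0 of 17 passed 1.5-fold.

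The probe sets most like each detected target were sought among 13072 that were above background on all 4 arrays and carried 1 symbol. Likeness was the Euclidean distance between the 4 log2 signals after each probe set's mean was subtracted, which over 4 arrays is a description only. For *Chrm3* the nearest was *Saa3*, which encodes an acute-phase serum amyloid, at a distance of 0.02, followed by *Ormdl3*, a gene of sphingolipid regulation, at 0.10 and *Zfp747* at 0.13. *Saa3* had 6.90 in control, 7.10 after IFNγ, 7.49 after benztropine and 7.14 after both. It was picked by likeness over these values, so its sharing the order of *Chrm3* follows from the choice. For *Hrh1* the nearest were *Zfp74*, *Itgam*, an integrin gene of microglia, and *Mpp2*, at distances of 0.01 to 0.02, and for *Chrm1* probe set 1 they were *4930500F10Rik*, *Psph* and *Tmem63a*, at 0.01 to 0.02. For *Slc6a3*, whose signal hardly moved, they were *Wdr75*, *Cops3* and *Mier3*, at 0.00 to 0.01.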

How the data were processed

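Log2 signals of 4 Affymetrix Mouse Gene 2.0 ST arrays were used as the authors deposited them, after the RMA method in Affymetrix Expression Console, which corrects background, normalizes quantiles over arrays and summarizes probe sets; their genome build is not given in the sources used here. Of 41345 probe sets, 25341 carry a gene symbol and 23521 a single one. Probe sets without a symbol were left out, as in the study's methods. RNA of 3 cultures was mixed per array, so the number of arrays limits the precision, and differences between 2 arrays have no test. The additive fit used limma 3.58.1 in R 4.3.3 with Benjamini-Hochberg adjustment. It was also run on simulated data with additive effects only, where the mean estimates had to lie near the set folds. That run cannot show how often calls are wrong where effects do not add. A fold against an array below background was computed against the background level. Where a list gene had several probe sets, the highest was used. Genes named were all targets, the 3 nearest probe sets of each detected target, and some list genes. The list genes were taken from the 3 highest of a list by mean signal and from those past 1.5-fold above background. Not all genes that met these 2 rules are named. Other names, including transmitter and cell-defining genes, were added after the values were seen. Some list genes without a probe set of their own were not analysed here. The targets and lists were chosen with earlier results of these data known. A further promoter motif was searched and is not reported here. Other thresholds, receptor sets, scalings, filters and variance priors were tried. Python 3.11.15 was used with numpy 2.4.6 and pandas 2.3.3.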

Additional observations from a re-analysis of the deposited data

How the results depend on the processing

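The count of detected targets depended on where background was set. It was 2, 3, 4 and 3 on the control, IFNγ, benztropine and combined arrays at the 95th percentile. It was 0, 1, 1 and 0 at the 99th, 6, 5, 6 and 6 at the 90th, 4, 5, 4 and 5 with vomeronasal receptors alone, and 2, 3, 4 and 1 with olfactory receptors alone. At the 90th percentile and for the separate receptor sets, the share of all named probe sets was not computed. Those counts therefore do not show whether the targets stand apart. Quantile normalization, and 1 mean value per gene, chosen after seeing the data, gave the main counts. Past 2-fold there were 0 targets with benztropine against control, where 1.5-fold gave 1 (0.466% of named probe sets passed 1.5-fold). The share past 2-fold was not computed. Past 1.2-fold there were 2 in that comparison, where 9.04% of named probe sets passed, 3 with both agents against IFNγ (9.79%), 1 with both agents against benztropine (13.4%) and 0 with IFNγ against control (12.9%). Over 64 recomputed target differences, under quantile normalization and with a loess trend removed, 0 changed sign and the largest shift was 0.04. Limma called 0 targets for each agent under the 5 other settings tried (adjusted p under 0.10, a variance trend, a robust prior, probe sets without a symbol kept, and probe sets above background on at least 1 array, where 4 target probe sets were in the fit). The total of 260 probe sets called for IFNγ became 741 with a variance trend and 582 in the fit above background. It became 14 with probe sets without a symbol kept, a setting that also widens the set tested. The cause of these shifts was not tested. For benztropine, the targets at an unadjusted limma p under 0.05 were 2 of 8 in the main fit and with a robust prior. They were 1 of 8 with a variance trend (8.27% of named probe sets) and 1 of 8 with probe sets without a symbol kept (6.87% of all probe sets). In the fit above background, which left out *Chrm4* and *Chrm2*, they were 0 of 4 (8.93% of probe sets in it). No paired analysis was possible because each condition has 1 array.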
